A study of Mus musculus with 6 samples.

Results

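The VEGF and angiopoietin genes described here are 10 genes chosen by symbol: the VEGF ligand genes Vegfa, Vegfb and Vegfc, their receptor genes Flt1, Kdr and Flt4, the angiopoietin genes Angpt1 and Angpt2, and the receptor genes Tek and Tie1. All 10 were present in the deposited table, among 24413 genes. Transcripts were measured by RNA-seq in W-EGFP cells, interstitial cells of the mouse fetal testis at E16.5, taken from FLE-EGFP mice, in which a fetal Leydig cell enhancer of Nr5a1 drives EGFP. The treated cells were exposed for 1 hour to 0.5 µM SAG, an agonist of Smoothened, which relays the Hedgehog signal into the cell. The comparison cells had the vehicle DMSO for the same time. Each group had 3 libraries of 10000 cells per sample. Nothing in the labels says that the replicates came from separate animals or cultures. The p-values therefore reflect the spread among these samples alone, and that spread may be technical. The column names of both groups also carry siCnt, which the labels do not explain.

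VEGF ligands are secreted and act mainly on endothelial cells. Kdr (VEGFR2) carries most of the growth and permeability signal of VEGF-A, while Flt1 (VEGFR1) binds VEGF-A tightly, signals weakly and can be made as a soluble form that traps the ligand. Flt4 (VEGFR3) is the receptor for VEGF-C and VEGF-D and is best known from lymphatic vessels. Angiopoietin 1 activates the receptor Tek (Tie2), angiopoietin 2 often opposes it, and Tie1 is a partner of Tek without a ligand of the classical kind. In the fetal testis, interstitial cells lie around the vessels that grow into the gonad.

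Of the 10 transcripts, 8 were tested and 3 of these fell with SAG, against 16.6% of all tested genes. Flt4 was 3.19-fold lower, Vegfc 2.35-fold lower and Flt1 1.99-fold lower than with DMSO. The gene for VEGF-C and the gene for its receptor both fell, while Vegfd, outside the 10, rose 2.72-fold. Vegfd encodes VEGF-D, the other ligand of Flt4. Vegfa and Vegfb, the most abundant ligand genes among the 10, and Kdr did not pass the test. Angpt1 and Angpt2 had higher values with SAG but few reads, and Tek and Tie1 were at the edge of detection.

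Levels are the CPM-like scaled values that the authors deposited, called signal here, each mean with its SD (n = 3 libraries in each group). The SAG libraries held 7693274 to 8804281 reads and the DMSO libraries 18486396 to 25491259, a depth ratio of 2.67 in favour of DMSO, so low genes are known less well with SAG. The core Hedgehog target genes rose: Gli1, a transcription factor switched on by the pathway, averaged 36.6 ± 8.46 with SAG and 0.625 ± 0.270 with DMSO, and Ptch1 and Hhip also passed, Hhip not without DMSO replicate 1 or 3 (limma, adjusted p = 0.0963 and 0.0684). Hhip reached the filter through its SAG libraries and was not tested when any 1 of them was left out. SAG replicate 3 stood apart from SAG replicates 1 and 2 on the second principal component (20.8% of the variance), and 1.67% of its reads were on the ribosomal RNA gene Rn45s, against at most 0.360% in the other libraries. Values without it are given beside the members it touches. Genes averaging a signal of 1 or more over the 6 libraries were tested, 12550 in all, and limma on log2(signal + 1) called 1625 higher and 2084 lower at a Benjamini-Hochberg adjusted p under 0.05. Without SAG replicate 3 the calls over all genes grew to 2463 higher and 3373 lower. For all genes, scaling by library total in place of the deposited scaling gave 2477 higher and 1259 lower, with a median over all tested genes of 0.10 on the log2 scale, against -0.03 with the deposited scaling.

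The start regions of the 3 genes that fell are shown because they moved together. Each is the RefSeq window from 250 bases before to 50 bases after the start, on build GRCm38.p6, read 5′ to 3′ on the gene's own strand. Vegfc lies at chr8:54077282-54077581 on the plus strand, Flt1 at chr5:147725962-147726261 on the minus strand and Flt4 at chr11:49609429-49609728 on the plus strand. Capitals mark matches on either strand to GGGCGG, a GC box, and to TGACGTCA, a cAMP response element that reads the same on both strands.

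Vegfc: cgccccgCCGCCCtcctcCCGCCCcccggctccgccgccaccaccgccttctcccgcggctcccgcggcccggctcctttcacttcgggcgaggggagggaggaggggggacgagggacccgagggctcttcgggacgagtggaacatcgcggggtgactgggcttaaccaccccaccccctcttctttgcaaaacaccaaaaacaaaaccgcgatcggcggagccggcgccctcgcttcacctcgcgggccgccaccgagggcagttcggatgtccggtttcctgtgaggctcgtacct

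Flt1: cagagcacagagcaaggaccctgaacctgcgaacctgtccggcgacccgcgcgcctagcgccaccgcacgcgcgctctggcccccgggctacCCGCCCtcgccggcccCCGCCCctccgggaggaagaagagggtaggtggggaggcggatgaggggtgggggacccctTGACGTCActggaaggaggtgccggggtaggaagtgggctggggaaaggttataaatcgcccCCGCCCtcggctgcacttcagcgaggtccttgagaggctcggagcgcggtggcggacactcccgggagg

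Flt4: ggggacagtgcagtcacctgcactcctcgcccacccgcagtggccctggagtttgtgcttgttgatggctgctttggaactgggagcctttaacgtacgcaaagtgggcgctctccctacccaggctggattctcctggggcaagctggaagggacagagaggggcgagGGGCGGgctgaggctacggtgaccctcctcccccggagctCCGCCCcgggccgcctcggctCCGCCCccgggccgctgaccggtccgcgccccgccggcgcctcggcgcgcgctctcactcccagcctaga

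These windows had 70.3% G and C in Vegfc and Flt4 and 70.7% in Flt1, against a median of 52.7% over all promoters. Vegfb, which did not fall, was higher still at 75.3%. The share was 62% and 59.3% in 2 windows of Vegfa, 60.7% in Kdr, 60.3% in Tie1 and 52% in Tek. GGGCGG was found in the windows of all 3 genes that fell, and in 35.7% of 32851 RefSeq windows of the same length. It was also in the windows of Vegfa, Vegfb and Kdr, which did not pass the test, and not in those of Tek and Tie1. TGACGTCA was found in Flt1, starting at position -81, and in 1.79% of all windows. RefSeq windows were given for 8 of the 10 genes, with 2 windows for Vegfa. The Gli consensus GACCACCCA, searched on both strands, was in 0 of these 9 windows and in 0.253% of all windows. The hypoxia response core ACGTG, on either strand, was in the second window of Vegfa and in 19.6% of all windows. Its variant form GCGTG was in the same window of Vegfa, in those of Vegfb, Flt1 and Kdr, and in 32.4% of all windows. This second window lies inside the Vegfa gene, at chr17:46025114-46025413. The first window of Vegfa, at chr17:46032328-46032627, held neither form. The motifs TGACGTCA and GGGCGG were chosen after the windows were seen, and a match is a string of letters, not a shown binding site.

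Of the 10 members, 9 had at least 1 read in all 6 libraries, none was without reads, and 8 passed the filter on mean signal. The 2 that did not pass were Tek and Tie1. Angpt1, with a mean of 1.001, sat just inside the filter. It passed through its SAG libraries, as did Angpt2 with a mean of 1.445. Tek, with a mean of 0.607, was the nearest outside. Limma called 3 of the 8, against 29.6% of all tested genes: 3 were lower, against 16.6%, and 0 higher, against 12.9%. At an unadjusted p under 0.05, limma gave 4 lower, against 23.2% of all tested genes, and 3 higher, against 19.0%. On the recovered reads edgeR called 1 higher, Angpt1, against 15.0% of all genes, and did so also with its own filter on low counts, under which 14.6% of genes were called higher. DESeq2 called 2 higher, Angpt1 and Vegfb, against 17.0% of all genes. The groups did not overlap for 6 of the 8, against 48.0% of all tested genes: 4 were lower, against 26.8%, and 2 higher, against 21.2%. The median log2 fold change of the 8 was -0.07, beside -0.03 for all tested genes.

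**Figure D1:**
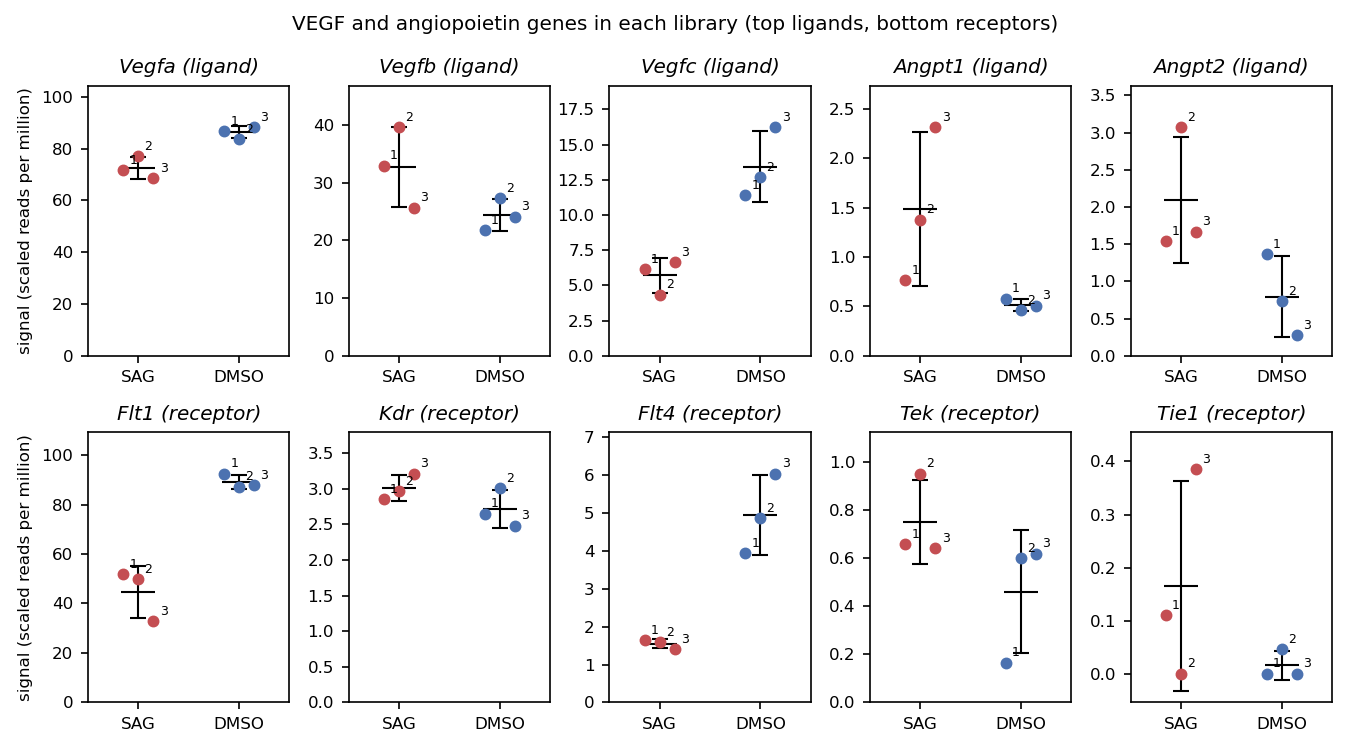
Signal (scaled CPM, on linear axes that differ by gene) of the 10 genes in each library, with SAG left of DMSO; points are libraries, small digits their replicate numbers, and bars the mean ± SD over 3. Flt1, Flt4 and Vegfc have all 3 SAG libraries below all 3 DMSO libraries, while Kdr and Vegfb overlap.

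Among the ligands, Vegfa, the main driver of vessel growth, measured 71.6, 77.1 and 68.6 in SAG replicates 1, 2 and 3, against 86.9, 83.8 and 88.3 in DMSO replicates 1, 2 and 3. Each SAG library was below each DMSO library, by a small margin. The log2 fold change was -0.25 (95% interval -0.47 to -0.03), which did not pass (limma, Benjamini-Hochberg adjusted p = 0.0823). Without SAG replicate 3 it passed at about the same size (log2 fold change -0.21, adjusted p = 0.0377). With scaling by library total the value was -0.11 (limma, adjusted p = 0.461). Vegfa spans 46016993 to 46032369 of chromosome 17, minus strand (GRCm38, GENCODE M21), and its splice forms, which differ in matrix binding, were summed in the deposited signal.

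Vegfb, a ligand of Flt1 that does not bind Kdr, had signals of 33.0, 39.6 and 25.7 with SAG and 21.8, 27.3 and 24.1 with DMSO. The groups overlapped, because SAG replicate 3 was below DMSO replicate 2. The log2 fold change was 0.39 (95% interval 0.02 to 0.77) and did not pass (limma, Benjamini-Hochberg adjusted p = 0.105). Without SAG replicate 3 the log2 fold change was 0.55 (limma, adjusted p = 6.5e-04). DESeq2 also called Vegfb (0.47, adjusted p = 0.0488). The gene lies on chromosome 19, minus strand, at 6982473 to 6987651.

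Vegfc, the ligand of Flt4 that drives lymphatic growth, had signals of 6.15, 4.34 and 6.68 with SAG, against 11.4, 12.7 and 16.2 with DMSO. Every SAG library lay well below the lowest DMSO library. Its mean was 5.73 ± 1.22 with SAG and 13.4 ± 2.50 with DMSO (log2 fold change -1.11, SE 0.20; limma, Benjamini-Hochberg adjusted p = 0.00328). The log2 fold change was -1.21 without SAG replicate 3. The values rested on 41 to 56 reads per SAG library and 274 to 288 per DMSO library. The gene runs along the plus strand of chromosome 8, at 54077606 to 54187096.

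Among the receptor genes Flt1 had by far the highest signal. Its values were 51.7, 49.9 and 32.8 with SAG, against 92.5, 87.2 and 87.8 with DMSO. The DMSO libraries lay close together, and the highest SAG library was far below them. The mean was 44.8 ± 10.5 with SAG and 89.1 ± 2.89 with DMSO (log2 fold change -1.005, SE 0.16; limma, Benjamini-Hochberg adjusted p = 0.00220). SAG replicate 3 was the lowest, and without it the fold change was -0.80. The gene spans chromosome 5 from 147561604 to 147726011 on the minus strand, and the deposited signal does not separate the membrane form from the soluble form.

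Flt4 was low and fell further. It had signals of 1.65, 1.59 and 1.41 with SAG, against 3.93, 4.85 and 6.03 with DMSO. The SAG values are tight and the groups are far apart, although they rest on 11 to 15 reads per SAG library and 95 to 107 per DMSO library. The mean was 1.55 ± 0.122 with SAG and 4.94 ± 1.05 with DMSO (log2 fold change -1.21, SE 0.21; limma, Benjamini-Hochberg adjusted p = 0.00268). The log2(signal + 1) scale understates a change at this level: edgeR on the recovered reads gave -1.63. In limma it was -1.17 without SAG replicate 3. The Flt4 gene occupies 49609263 to 49652739 of chromosome 11, plus strand.

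Kdr, the principal signalling receptor for VEGF-A, had signals of 2.86, 2.97 and 3.21 with SAG and 2.65, 3.004 and 2.48 with DMSO. The groups overlapped and the values hardly spread, although they rest on 25 to 28 reads per SAG library and 44 to 65 per DMSO library. Its log2 fold change was 0.11, with a 95% interval of -0.30 to 0.53 (limma, Benjamini-Hochberg adjusted p = 0.678), so a fall as large as that of Flt1 lay outside the interval. It was 0.08 without SAG replicate 3. The Kdr gene occupies 75932827 to 75978458 of chromosome 5, minus strand.

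**Figure D2:**
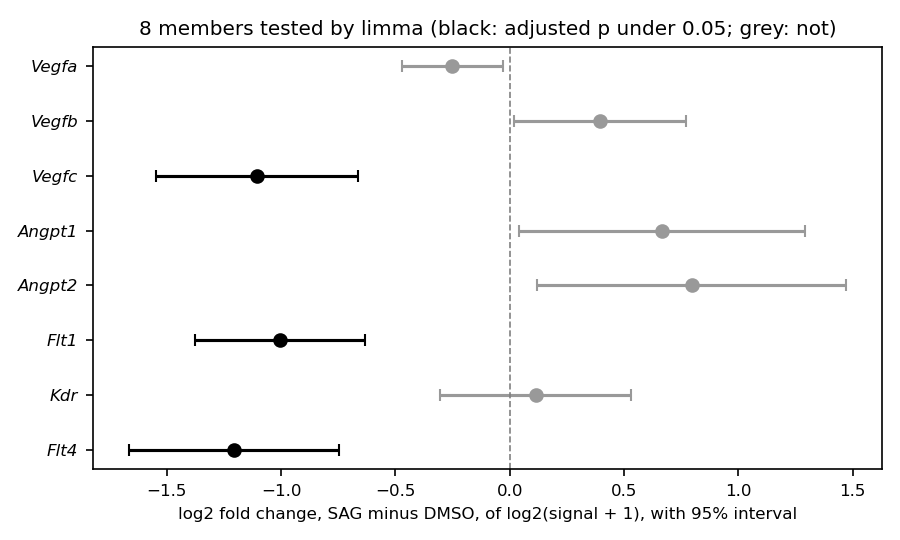
Log2 fold change (SAG minus DMSO, of log2(signal + 1)) of the 8 tested genes with its 95% interval from limma; black points passed at an adjusted p under 0.05. Vegfc, Flt1 and Flt4 lie near -1, and the interval of Kdr spans 0.

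Angpt1, the activating ligand of Tek, had 7, 13 and 18 reads with SAG and 14, 10 and 9 with DMSO, which is a signal of 0.769, 1.38 and 2.31 with SAG against 0.580, 0.462 and 0.508 with DMSO. Every SAG signal was above every DMSO signal, although SAG replicate 1 was close to DMSO replicate 1. Its mean was 1.49 ± 0.777 with SAG and 0.516 ± 0.0593 with DMSO, and limma did not call it (log2 fold change 0.67, SE 0.28; Benjamini-Hochberg adjusted p = 0.0996). The count models gave a larger value and a narrow pass, with a log2 fold change of 1.51 in edgeR (adjusted p = 0.0451) and 1.55 in DESeq2 (adjusted p = 0.0340). Without SAG replicate 1, limma passed too (0.89, adjusted p = 0.0413). The gene was under the filter, and so not tested, without SAG replicate 2 or 3. Angpt1 spans 42424723 to 42676977 of chromosome 15, minus strand.

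Angpt2, the ligand that can block Tek, had signals of 1.54, 3.07 and 1.67 with SAG and 1.37, 0.740 and 0.282 with DMSO. The groups did not overlap, but the DMSO libraries themselves differed widely. The mean was 2.09 ± 0.850 with SAG and 0.796 ± 0.544 with DMSO (log2 fold change 0.80, SE 0.30; limma, Benjamini-Hochberg adjusted p = 0.0739). Without SAG replicate 3 it passed (0.88, adjusted p = 0.0203). Angpt2 spans 18690263 to 18741562 of chromosome 8, minus strand, where Mcph1 runs along the opposite strand. Mcph1 had 96 to 103 reads per SAG library and 227 to 335 per DMSO library. The library kit preserved strand, but the strand setting of the counting is not given in the sources used here, so Angpt2 reads are uncertain.

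Tek had 6, 9 and 5 reads with SAG and 4, 13 and 11 with DMSO, or signals of 0.659, 0.953 and 0.642 with SAG against 0.166, 0.601 and 0.620 with DMSO. The SAG values were all above the DMSO values, but the gap between the lowest SAG and the highest DMSO library was less than the worth of 1 read. The ratio of summed reads per scaled depth was 1.72, with an exact 95% interval of 0.920 to 3.17 that covers counting error only. An exact two-sided permutation test gave p = 0.1, the smallest that 3 against 3 libraries allow. Tek spans 94739289 to 94874976 of chromosome 4, plus strand.

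Tie1 had 1, 0 and 3 reads with SAG and 0, 1 and 0 with DMSO. A count of 0 allows a signal of up to 0.318 in SAG replicate 2, 0.124 in DMSO replicate 1 and 0.169 in DMSO replicate 3. No difference was detectable at this depth (exact two-sided permutation p = 0.4). Tie1 spans 118471191 to 118490061 of chromosome 4, minus strand.

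Per kilobase of exon, which allows genes to be compared, Vegfa and Vegfb stood above all other members. The level with SAG was 20.4 ± 4.34 for Vegfb, 16.9 ± 1.01 for Vegfa, 3.32 ± 0.775 for Flt1 and 2.34 ± 0.500 for Vegfc. With DMSO the level was 20.1 ± 0.539 for Vegfa, 15.2 ± 1.73 for Vegfb, 6.60 ± 0.214 for Flt1 and 5.49 ± 1.02 for Vegfc. Vegfa and Vegfb overlapped with SAG but not with DMSO, and Flt1 and Vegfc overlapped in both groups. The other 6 genes were below 1 per kilobase in every library. With SAG their order was Angpt2 at 0.567 ± 0.230, Kdr at 0.334 ± 0.0201, Angpt1 at 0.286 ± 0.149, Flt4 at 0.188 ± 0.0148, Tek at 0.160 ± 0.0371 and Tie1 at 0.0336 ± 0.0404. With DMSO it was Flt4 at 0.6002 ± 0.128, Kdr at 0.300 ± 0.0296, Angpt2 at 0.216 ± 0.148, Angpt1 at 0.0992 ± 0.0114, Tek at 0.0981 ± 0.0546 and Tie1 at 0.00313 ± 0.00543. Flt4 thus led this lower group with DMSO and was below Kdr in every SAG library. With SAG, neighbours from Kdr through Angpt1 and Flt4 to Tek overlapped, while Angpt2 lay above Kdr and Tek above Tie1 without overlap. With DMSO, neighbours from Kdr through Angpt2 and Angpt1 to Tek overlapped, while Flt4 lay above Kdr and Tek above Tie1 without overlap.

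Ratios within a library do not depend on the scaling. Of 7 pairs considered, 4 had at least 10 reads for both genes in every library. Flt1 was 18.1, 16.8 and 10.2 times Kdr in signal with SAG, against 34.9, 29.0 and 35.4 times with DMSO. Vegfa was 2.17, 1.95 and 2.67 times Vegfb with SAG and 3.99, 3.07 and 3.66 times with DMSO. Vegfc was 0.0859, 0.0563 and 0.0974 of Vegfa with SAG and 0.132, 0.151 and 0.184 with DMSO. Vegfa was 25.1, 26.0 and 21.4 times Kdr with SAG and 32.8, 27.9 and 35.6 times with DMSO. All 4 ratios were lower in every SAG library, and each had an exact two-sided permutation p of 0.1, also after Benjamini-Hochberg adjustment over the 4, the smallest this design allows.

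Other genes of the pathway were taken in 8 lists with 71 genes, of which 65 passed the filter. Of these, 13 rose and 21 fell, with a median log2 fold change of -0.06, against 12.9% and 16.6% of all tested genes. The VEGF-C and VEGF-D branch moved in its parts. Vegfd, the other ligand of Flt4, listed in the table under its older symbol Figf, had signals of 139.2, 138.6 and 107.2 with SAG and 45.1, 43.8 and 52.5 with DMSO. It rose 2.72-fold while Vegfc fell (log2 fold change 1.42, SE 0.13; limma, Benjamini-Hochberg adjusted p = 1.1e-04). The ratio of Figf to Vegfc signal was 16.1 to 31.9 in the SAG libraries and 3.23 to 3.95 in the DMSO libraries; this pair was chosen after its values were seen and has no test.

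Among 6 genes that process VEGF-C and VEGF-D, 2 rose, against 12.9% of all tested genes, and the other 4 did not pass. Pcsk5, a proprotein convertase, averaged 33.0 ± 4.94 with SAG and 12.02 ± 1.74 with DMSO (limma, Benjamini-Hochberg adjusted p = 3.5e-04). Ccbe1, a cofactor of VEGF-C cleavage, averaged 10.04 ± 1.54 with SAG and 5.05 ± 1.21 with DMSO (adjusted p = 0.0107). Adamts3, the protease that Ccbe1 assists, averaged 4.30 ± 0.597 with SAG and 2.68 ± 0.322 with DMSO and did not pass (adjusted p = 0.0653). Pcsk7 averaged 43.3 ± 9.75 with SAG and 30.8 ± 0.686 with DMSO (adjusted p = 0.0517), and passed in edgeR (adjusted p = 0.0329) and DESeq2 (adjusted p = 0.0130) and in limma without SAG replicate 1 (adjusted p = 0.0270) or 3 (adjusted p = 0.0329). The number that rose was 4 without SAG replicate 3, 4 in DESeq2 and 5 with scaling by library total. Over all genes the number called higher grew too, to 2463, 2138 and 2477 in the same order, against 1625.

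Both neuropilin genes, whose products are VEGF co-receptors, fell. Nrp2, the partner of Flt4, had signals of 156.1, 142.8 and 138.6 with SAG, against 287.9, 284.0 and 286.7 with DMSO, and was 1.96-fold lower (limma, Benjamini-Hochberg adjusted p = 1.2e-04). Nrp1, the partner of Kdr, averaged 145.6 ± 13.7 with SAG and 203.9 ± 17 with DMSO (log2 fold change -0.48, SE 0.11; adjusted p = 0.00976), a call that was lost without DMSO replicate 3 (adjusted p = 0.0668). Pgf, placental growth factor, which binds Flt1, averaged 16.4 ± 4.51 with SAG and 22.3 ± 1.35 with DMSO and did not pass (adjusted p = 0.104). Without SAG replicate 3 Pgf passed (log2 fold change -0.60, adjusted p = 0.0025).

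Of 4 tested genes around the angiopoietin receptors, 2 fell, 1 rose and 1 did not pass. Ptprb, the phosphatase that restrains Tek, averaged 52.8 ± 15.4 with SAG and 94.5 ± 3.43 with DMSO (limma, Benjamini-Hochberg adjusted p = 0.00853). Ptpn11, a phosphatase recruited by many receptors, averaged 261.4 ± 26.0 with SAG and 380.2 ± 4.40 with DMSO (adjusted p = 0.00375). Svep1, a matrix protein that binds angiopoietins and Tie1, averaged 108.2 ± 12 with SAG and 72.3 ± 9.07 with DMSO (adjusted p = 0.00890, and 0.0562 without DMSO replicate 3). Angpt4 averaged 1.66 ± 0.731 with SAG and 2.54 ± 0.538 with DMSO (adjusted p = 0.223).

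Of 11 tested signalling adapters of VEGF receptors, 4 fell: Src, Ptk2, Shc1 and Plcg1. Src, a kinase used by many receptors, averaged 53.6 ± 5.37 with SAG and 83.3 ± 2.77 with DMSO (log2 fold change -0.63; limma, Benjamini-Hochberg adjusted p = 0.00286). The falls of Ptk2, Shc1 and Plcg1 were small (log2 fold changes -0.40, -0.34 and -0.36). Their calls were lost without any 1 of the DMSO replicates and with scaling by library total, leaving 1 adapter called lower in each case. With scaling by library total 1 adapter was also called higher.

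Genes of oxygen sensing were included because Vegfa is a classical target of hypoxia-inducible factor. Among 8 genes of oxygen sensing, 1 fell: Hif1a, its oxygen-regulated subunit, averaged 177.4 ± 10.8 with SAG and 291.1 ± 5.32 with DMSO (limma, Benjamini-Hochberg adjusted p = 6.3e-04). Vhl, which marks that subunit for destruction, averaged 37.8 ± 7.82 with SAG and 29.0 ± 0.294 with DMSO and did not pass (adjusted p = 0.109). Vhl passed as higher in DESeq2 (adjusted p = 0.0495), and also in limma without SAG replicate 2 (0.0284) or when scaled by library total (0.0291). Of 11 tested hypoxia target genes, 3 rose and 3 fell, with a median of 0.10. Vldlr, Ndrg1 and Mxi1 rose by log2 fold changes of 0.72, 0.80 and 0.82. The glucose transporter gene Slc2a1 averaged 69.8 ± 0.617 with SAG and 109.8 ± 5.18 with DMSO and fell (adjusted p = 0.00123).

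Among 21 tested genes for other secreted regulators of angiogenesis, 6 rose and 9 fell, with a median of -0.12. Thbs1, thrombospondin 1, an inhibitor of vessel growth, averaged 2465 ± 258.2 with SAG and 5557 ± 250.6 with DMSO. Adamts1, a protease with anti-angiogenic activity, averaged 207.2 ± 29.8 with SAG and 80.2 ± 2.27 with DMSO. Hbegf, an EGF family ligand, averaged 34.4 ± 7.81 with SAG and 89.6 ± 5.48 with DMSO, and Sema3a, a neuropilin ligand, averaged 8.20 ± 2.33 with SAG and 30.2 ± 4.34 with DMSO. These 4 had the smallest p of the list (limma, Benjamini-Hochberg adjusted p at most 3.4e-04), and Thbs1 and Adamts1, both inhibitors of vessel growth, went opposite ways.

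**Figure D3:**
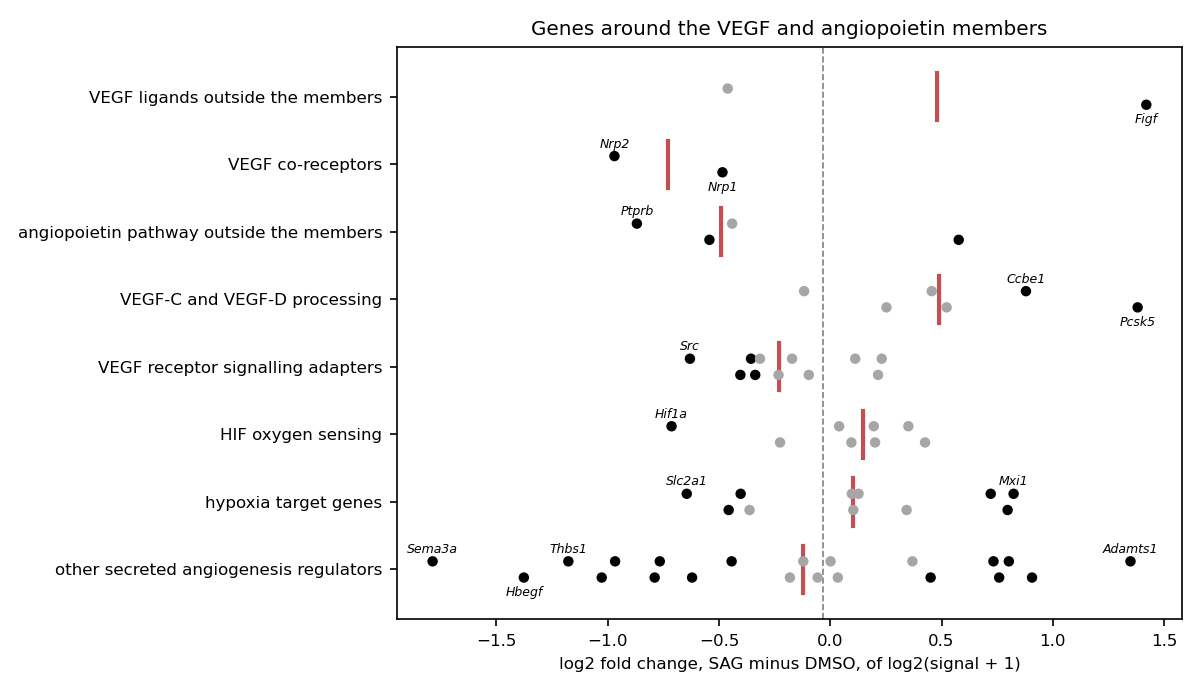
Log2 fold change (SAG minus DMSO, of log2(signal + 1)) of each tested gene in 8 lists around the members; black points passed at an adjusted p under 0.05, red bars are list medians and the dashed line is the median of all tested genes (-0.03). Figf and Pcsk5 lie far to the right and both neuropilin genes to the left.

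Since these receptors mark endothelial cells, 20 endothelial markers were examined, and 15 of them did not pass the filter. Cldn5, Sox17, Tal1 and Icam2 were at 0 reads in all libraries, and Pecam1 averaged 0.324 ± 0.321 with SAG and 0.518 ± 0.132 with DMSO. The summed signal of the 20 was 124.2 to 173.2 with SAG and 120.5 to 124.1 with DMSO, nearly all of it from Eng and Cdh5. Eng averaged 102.7 ± 17.96 with SAG and 85.3 ± 0.915 with DMSO (limma, Benjamini-Hochberg adjusted p = 0.181). Cdh5, the endothelial cadherin, averaged 38.6 ± 8.94 with SAG and 27.8 ± 3.15 with DMSO (adjusted p = 0.0930). Without SAG replicate 3 both passed as higher (adjusted p = 2.6e-04 for Eng and 4.6e-05 for Cdh5). The other 18 summed to 10.4 to 12.8 with SAG and 8.57 to 9.40 with DMSO, and none of them exceeded 5 in any library. The marker that rose was Sox18, which averaged 2.65 ± 0.368 with SAG and 0.361 ± 0.323 with DMSO (adjusted p = 0.00329). Sox18 reached the filter through its SAG libraries and was not tested under the filter at 5. Emcn averaged 2.02 ± 0.308 with SAG and 3.31 ± 0.583 with DMSO (adjusted p = 0.0899). Most endothelial markers were near 0 in these libraries. Their sum, nearly all Eng and Cdh5, was no lower with SAG, and the part of endothelial cells in the fall of Flt1 was not tested. In bulk samples, fewer cells of a type and less RNA per cell cannot be told apart.

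**Figure D4:**
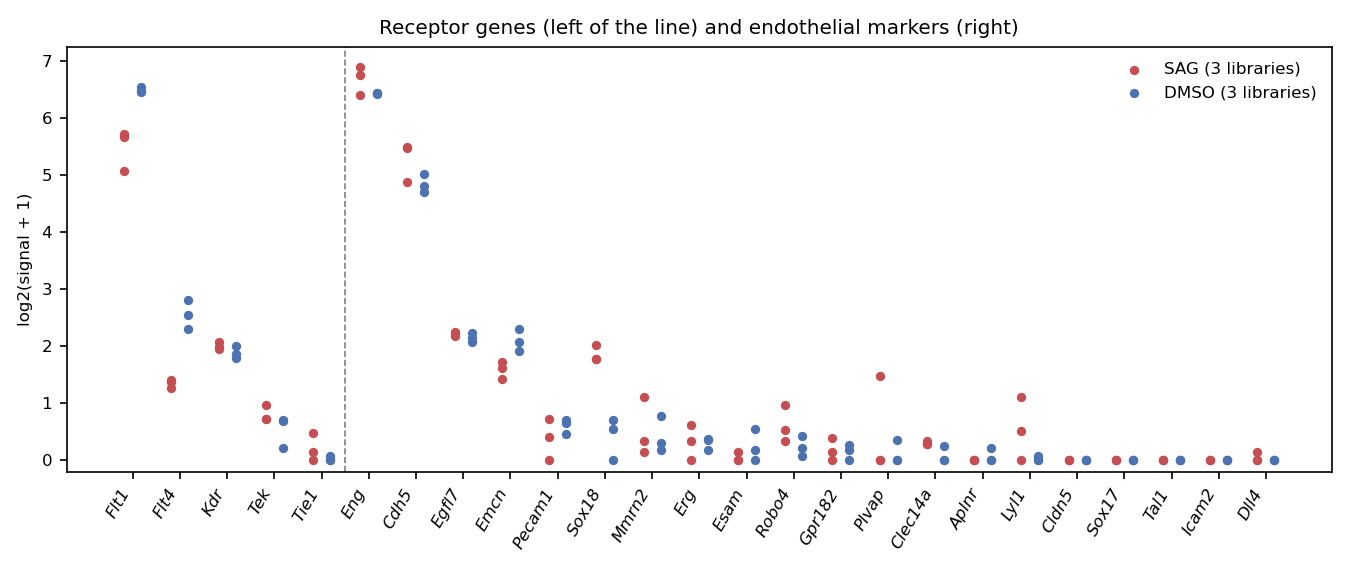
Level as log2(signal + 1) of the 5 receptor genes and 20 endothelial markers in each of the 6 libraries, SAG points left of DMSO points for each gene. Flt1, Eng and Cdh5 are well expressed, while Pecam1, Cldn5 and most other markers lie near 0.

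Lymphatic markers were low as well, with Prox1, Lyve1 and Ccl21a summing to 0.899 to 2.01 with SAG and 0.564 to 1.82 with DMSO, and Ccl21a at 0 reads. Macrophage markers summed to 1.17 to 3.85 with SAG and 2.32 to 3.47 with DMSO over 12 genes, with Tyrobp and C1qc at 0. Erythroid markers summed to at most 0.318 with SAG and 0.509 with DMSO over 6 genes, 3 of them at 0. Of 10 tested pericyte and smooth muscle markers, 7 fell and 2 rose, against 16.6% and 12.9% of all tested genes. Cnn1 averaged 367.3 ± 87.6 with SAG and 685.6 ± 38.5 with DMSO. Acta2 averaged 6581 ± 321.8 with SAG and 9797 ± 133.3 with DMSO, and Tagln averaged 3993 ± 240.3 with SAG and 5847 ± 109.6 with DMSO. The 12 genes summed to 12970 to 14220 with SAG and 19730 to 20610 with DMSO. Notch3 and Abcc9 rose. Notch3, with the smallest p of the list, averaged 112.3 ± 20.6 with SAG and 62.9 ± 2.31 with DMSO (limma, Benjamini-Hochberg adjusted p = 0.00216). Abcc9 (adjusted p = 0.0451) reached the filter through its SAG libraries, and its call was lost without any 1 of the DMSO replicates (adjusted p = 0.0910 to 0.149) and with thinned DMSO reads (0.0752). It was not tested without SAG replicate 2 or 3, nor under the filter at 5. The pericyte marker Rgs5 averaged 0.425 ± 0.643 with SAG and 0.455 ± 0.0406 with DMSO, under the filter. The number that fell was 4 without any 1 of the DMSO replicates and with scaling by library total, and 3 with no filter. The part of these cells in the changes of Flt1, Flt4 and Vegfc was not tested.

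Markers of interstitial progenitors went the other way, with 6 of 8 rising and 1 falling. Pdgfra averaged 220.2 ± 8.69 with SAG and 34.7 ± 2.36 with DMSO, and Tcf21 averaged 249.4 ± 29.9 with SAG and 42.9 ± 3.36 with DMSO. Nr5a1, the gene whose enhancer labels the cells, averaged 104.3 ± 4.86 with SAG and 118.9 ± 4.08 with DMSO (limma, Benjamini-Hochberg adjusted p = 0.160). Every SAG library was below every DMSO library, and without SAG replicate 3 Nr5a1 passed as lower (log2 fold change -0.20, adjusted p = 0.0344). The 6 fetal Leydig markers summed to 121.7, 126.6 and 222.3 in SAG replicates 1, 2 and 3, against 149.0 to 156.7 with DMSO, so SAG replicate 3 stood above all other libraries and SAG replicates 1 and 2 below them. Star, which carries cholesterol into mitochondria, had 11.97, 11.2 and 50.7 with SAG, against 23.9, 25.01 and 24.3 with DMSO. Of the 4 markers tested, 0 were lower over all libraries and 2, Star and Nr5a1, without SAG replicate 3. The marker that rose, Hsd3b1, had 3.73, 2.01 and 30.8 with SAG and at most 0.370 with DMSO (adjusted p = 0.0193), a call lost without any 1 of the DMSO replicates (0.0520 to 0.0720). The part of these cells in the members' values was not tested. Sertoli markers summed to 36.8 to 39.1 with SAG and 40.8 to 45.7 with DMSO, and germ cell markers to at most 0.220 with SAG and 0.231 with DMSO, with 4 of 6 at 0.

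The genes whose values over the 6 libraries ran most alike were found by the root-mean-square difference of centred log2(signal + 1). For Flt1 the nearest were Lmod1, at 0.0294 log2 units, and Lsm12, at 0.0493. For Flt4 they were Gabrb1, at 0.0801, and Tgfb2, at 0.114, and for Vegfc they were Hecw1, at 0.0848, and Arhgdib, at 0.0961. For Vegfa they were Efemp2 and Dlgap4, for Vegfb Ddx39b and Zbtb40, for Kdr Stx17 and Ankrd13b, for Angpt1 N4bp3 and Tsc22d3, and for Angpt2 Esr1 and Nfatc2, at 0.0225 to 0.107. The likeness is a description over 6 libraries in 2 groups.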

How the data were processed

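RNA-seq libraries of W-EGFP cells treated with SAG or DMSO (3 each) were used. The submitters' processing notes name STAR, Trim Galore 0.6.4, edgeR (with version 2.2.1) and featureCounts 2.0.0, on GRCm38 (mm10). Annotation, strand setting and filters are not given in the sources used here. A table of 24505 rows was deposited by the authors, with a signal named CPM whose column sums run from 932712 to 1055620. In every column 100% of values were whole multiples of 1 step within 0.01, which gave back read counts; TMM factors from these differed from those implied by the column sums by at most 0.0004. The 92 spike-in rows were left out, and 7098 genes were at 0 throughout.

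Log2(signal + 1) was fitted for genes averaging 1 or more with limma 3.58.1 (eBayes with trend) in R 4.3.3; the model held the treatment alone, with Benjamini-Hochberg adjustment over 12550 genes, threshold 0.05. Signals per kilobase used exon unions of GENCODE M21. Exact binomial intervals of read ratios are at 95% and, with the limit of 3 reads for a count of 0, cover counting error only. The fit was tested on simulated counts. Alternatives used other pseudocounts, filters and scalings, edgeR 4.0.16, DESeq2 1.42.0, thinned DMSO reads, a replicate block and each library left out. Named genes were the 10 members, Gli1, Ptch1 and Hhip, up to 4 per list by smallest p and 2 nearest patterns per member; others named at 0 or low reads were chosen after their values were seen. Members and lists were chosen with earlier results of these data known.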

Additional observations from a re-analysis of the deposited data

Results flagged for a closer look

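The table also held rows for synthetic spike-in RNAs, which no comparison used. They had 111, 54 and 1205 reads in SAG replicates 1, 2 and 3 and 0 reads in each DMSO library, so a signal outside the measured genes was present in the SAG libraries alone. It was highest in SAG replicate 3, and without that library limma called Vegfa, Vegfb and Angpt2. The calls over all genes grew too, to 2463 higher and 3373 lower, against 1625 and 2084 with all 6 libraries. Read depth was also lower in every SAG library than in every DMSO library. Any difference in library handling that follows this split cannot be told apart from the treatment. The part of the spike-in reads or of such handling in any result was not tested. Groups of 3 libraries were not tested for single outlying values.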

How the results depend on the processing

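The falls of Flt1, Vegfc and Flt4 kept their direction and their call under every alternative in which they were tested: 18 for Flt1 (log2 fold change -1.12 to -0.80, Benjamini-Hochberg adjusted p at most 0.0167), 18 for Vegfc (-1.23 to -0.95, at most 0.0232) and 17 for Flt4 (-1.63 to -1.08, at most 0.0216), which was left untested by the stricter filter (mean signal 5). The number of members called higher, 0 in limma, was 2 with DESeq2, 1 with edgeR, 1 with edgeR and its own filter (a choice added after seeing the data), and 0 to 2 with each library left out in turn; the cause was not tested. Kdr stayed without a call in 17 alternatives (0.07 to 0.25). Same-numbered libraries did not deviate together (correlations -0.0231, 0.0332 and -1.7e-04), which does not settle whether the numbers pair the samples. With a replicate block 0 members were called higher and 3 lower, and 1549 and 1976 of all genes. With that block the calls of Plcg1 (adjusted p = 0.0503), Shc1 (0.0516) and Abcc9 (0.0778) were lost and Pcsk7 passed (0.0446). On the recovered reads edgeR called 1877 of all genes higher and 1881 lower. Without DMSO replicate 1, 2 or 3 the calls over all genes were 930, 969 and 901 higher and 1093, 1136 and 1086 lower, and without SAG replicate 3 they were 2463 and 3373. Depth limits Angpt1, Angpt2, Tek and Tie1, which had at most 33 reads in any library. It also limits Kdr and Flt4 with SAG, at 25 to 28 and 11 to 15 reads per SAG library.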
